A study of Mus musculus with 12 samples.

Results

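The heat shock and chaperone genes described here are 10 genes, Hspd1, Hspe1, Hsp90aa1, Hsp90ab1, Hspa8, Hspa5, Hspa9, Hspa4, Hsph1 and Dnajb1, out of 21887 protein-coding genes that could be scored. They were taken by name, with earlier results of these data known, and a region of a peak list was given to a gene when it lay inside the gene or within 5 kb of either gene end. All libraries came from Raw264.7, a mouse monocyte-derived line that can form osteoclasts and whose source the labels give as bone marrow. BRD2 and BRD3 binding was measured by chromatin immunoprecipitation and sequencing in cells given both agents (RANKL+Ibet), the osteoclast-inducing cytokine RANKL at 50 ng/ml, the BET inhibitor Ibet at 500 nM, or neither (untreated); treated cells were fixed after 4 h. There was 1 library per antibody and treatment, so 8 peak lists, and no value below has a replicate error or a test between treatments.

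Heat shock proteins are molecular chaperones that bind unfolded or nascent proteins and help them to fold, move to an organelle or be degraded. Many are made constantly in growing cells, and a subset is induced by the heat shock factor HSF1 through heat shock elements, or by the unfolded protein response in the endoplasmic reticulum. BRD2 and BRD3 are BET proteins, which bind acetylated histones at active promoters and enhancers through bromodomains, and Ibet occupies those bromodomains.

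Promoter sequence was available in the RefSeq table (GRCm38.p6) for 6 of the 10 genes, each window running from 250 bases before the start site to 50 after it. The 4 windows below are shown because they hold the contrast the data turn on: Hspe1 and Hspa4 lay under regions of both proteins, Hspa5 lay under a BRD2 region (Ibet only) and no BRD3 region, and Hsph1 under none. Capitals mark the fixed letters of the searched motifs, which were the heat shock elements GAANNTTC and TTCNNGAA, the ER stress element (CCAAT, any 9 bases, then CCACG), the CCAAT box and the TATA box TATAAA, on both strands; the ER stress element contains a CCAAT box.
Hspe1, chr1:55087898-55088197, plus strand: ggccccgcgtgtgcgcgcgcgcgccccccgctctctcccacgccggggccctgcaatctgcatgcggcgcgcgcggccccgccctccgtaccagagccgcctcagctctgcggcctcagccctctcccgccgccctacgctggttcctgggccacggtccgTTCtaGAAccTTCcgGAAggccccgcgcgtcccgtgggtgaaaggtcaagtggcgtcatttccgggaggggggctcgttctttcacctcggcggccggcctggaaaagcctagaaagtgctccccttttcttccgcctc
Hspa5, chr2:34771840-34772139, plus strand: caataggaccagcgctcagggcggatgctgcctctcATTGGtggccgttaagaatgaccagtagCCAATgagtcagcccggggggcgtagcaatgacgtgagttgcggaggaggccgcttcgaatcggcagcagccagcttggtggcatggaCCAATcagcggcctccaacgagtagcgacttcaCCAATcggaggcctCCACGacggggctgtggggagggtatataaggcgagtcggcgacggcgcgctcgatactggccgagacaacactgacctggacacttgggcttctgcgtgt
Hspa4, chr11:53300430-53300729, minus strand: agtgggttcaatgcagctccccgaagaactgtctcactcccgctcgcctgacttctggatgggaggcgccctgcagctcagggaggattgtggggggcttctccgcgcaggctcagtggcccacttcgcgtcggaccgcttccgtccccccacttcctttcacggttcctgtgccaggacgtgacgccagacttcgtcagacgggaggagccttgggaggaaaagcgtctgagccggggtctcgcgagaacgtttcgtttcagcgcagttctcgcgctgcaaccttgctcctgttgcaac
Hsph1, chr5:149636287-149636586, minus strand: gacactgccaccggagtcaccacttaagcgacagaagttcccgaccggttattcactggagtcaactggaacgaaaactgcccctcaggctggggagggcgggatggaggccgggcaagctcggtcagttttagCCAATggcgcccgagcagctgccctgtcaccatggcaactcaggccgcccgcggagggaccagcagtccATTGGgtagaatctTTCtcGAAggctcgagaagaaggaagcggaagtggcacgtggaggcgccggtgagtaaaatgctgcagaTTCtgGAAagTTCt

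Longer heat shock elements, in which a further repeat adjoins GAANNTTC or TTCNNGAA at the same spacing, were found at Hspd1, Hspe1 and Hsph1 among the 6 genes, against 0.517% of 21263 promoters of protein-coding genes. The Hspe1 matches joined into 1 run from base -89 to base -72 counted from the start site. The same bases count as a match for one of the 2 listed Hspd1 start sites, because the pair is transcribed in opposite directions from a shared stretch. At Hsph1 the longer match lay after both listed start sites. It ran from base 37 to base 49 counted from one, and from base 16 to base 28 counted from the other. Hspa5 alone held the ER stress element, from base -65 to base -47, against 0.141% of promoters. CCAAT boxes were found at Hspa5, Hspd1, Hsph1 and Dnajb1, against 38.2% of promoters, and no TATAAA was found in these windows, against 12.6%. Hspa4 held no match. The shorter heat shock element of 2 repeats was found at Hspd1, Hspe1 and Hsph1, and 13.7% of promoters hold it. A match is a description of letters and not evidence of a bound site, and binding of heat shock factors was not measured here. Hsph1 and Hspe1 both held the longer element, and their BET calls differed in 4 of the 8 lists.

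The peak lists held 245 to 1716 BRD2 regions and 2232 to 3840 BRD3 regions. They carry neither read counts nor depth, so a missing region is a missing call, and the number of calls can move with depth. Of 10 macrophage markers, 8 had a region in at least 1 list; Adgre1 and Itgam had none. Markers of other cells had 1 of 5 for T cells (Cd3g), 0 of 5 for B cells, 0 of 5 for erythroid cells and 1 of 5 for osteoblasts and stroma (Runx2).

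Of the 10 chaperone genes, 9 had a region in at least 1 list, against 28.3% of all protein-coding genes, and Hsph1 had none. BRD2 regions were found at 1 gene with RANKL+Ibet, 4 with RANKL, 6 with Ibet only and 3 in untreated cells, against 1.34%, 8.85%, 5.4% and 3.04% of all genes in the same lists. For BRD3 the counts were 6 with RANKL+Ibet, 7 with RANKL, 4 with Ibet only and 4 in untreated cells, against 16%, 19%, 13% and 18.9% of all genes. The order of the treatments changed with the score. In the upper 50% of each list by score, the BRD3 counts were 3 with RANKL+Ibet, 1 with RANKL, 2 with Ibet only and 4 in untreated cells, and the BRD2 counts were 1, 1, 2 and 2 in the same order of treatments. All protein-coding genes include genes that are silent in these cells, and expression was not used here, so these shares do not set the chaperone genes apart from other transcribed genes. Hspd1 and Hspe1 share each of their regions and count as 2 genes throughout.

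**Figure D1:**
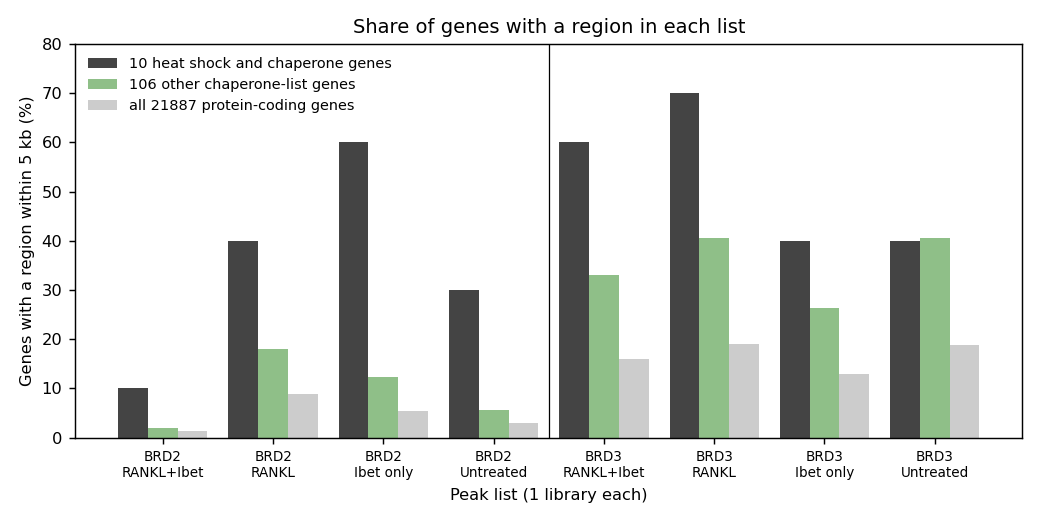
Share of genes with a region within 5 kb (vertical axis, percent) in each of the 8 peak lists (horizontal axis, 1 library each), for the 10 heat shock and chaperone genes, 106 other genes of the chaperone lists and all 21887 protein-coding genes. The 10 genes stand above all genes in every list, with 7 of 10 against 19% in the BRD3 RANKL list.

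**Figure D2:**
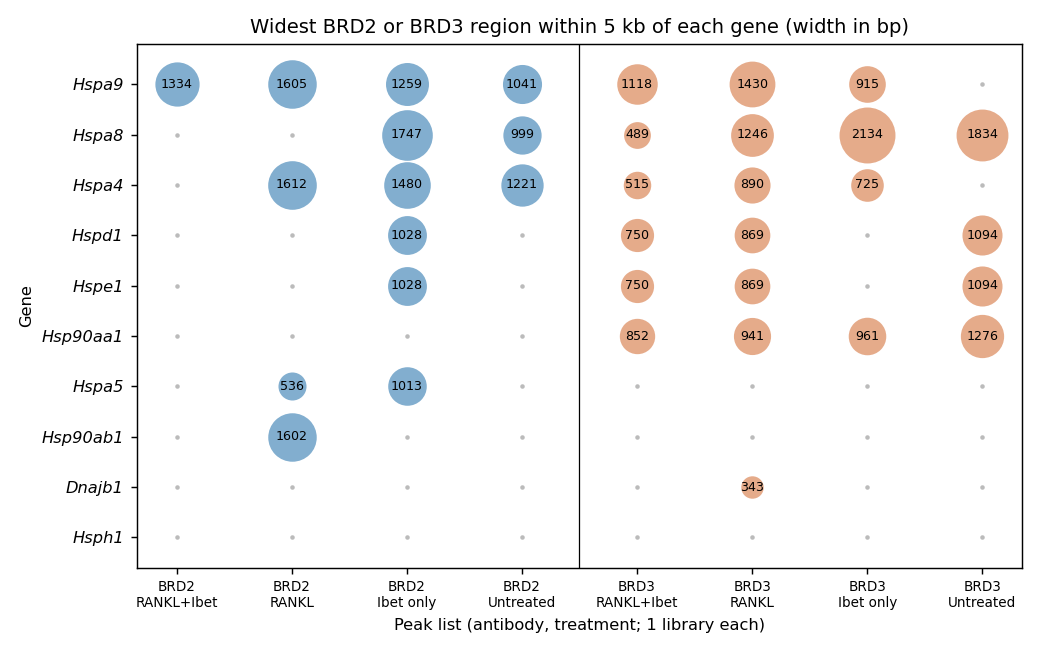
Each circle is the widest region of a gene (rows) in a peak list (columns, 1 library each); circle area and the printed number give its width in bp, and a grey dot means no region. Hspa9 is filled in 7 of 8 lists, Hsph1 in none, and Hsp90aa1 in the 4 BRD3 lists alone.

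The mitochondrial chaperonin genes Hspd1 (HSP60, the folding chamber) and Hspe1 (HSP10, its lid) lie head to head on chromosome 1, Hspd1 at 55077833 to 55088243 and Hspe1 at 55088148 to 55091317, and had calls of BRD2 and BRD3 that did not coincide in any treatment. Their shared BRD3 region was 750 bp wide with RANKL+Ibet, 869 bp with RANKL and 1094 bp in untreated cells, and was not called with Ibet only, a pattern found at 2.26% of all genes. Their BRD2 region was called with Ibet only, at 55087563 to 55088590 (1028 bp), and in none of the other BRD2 lists. The single treatment without a BRD3 call was therefore the single one with a BRD2 call. All 4 regions covered the complete 300 bases of the Hspe1 window printed above. Within its list the untreated BRD3 region was among the high scores, at rank 140 of 3668, while the BRD2 region stood near the bottom, at rank 1017 of 1067. The score is the authors' own value per region and was used for ranks within a list only.

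The cytosolic HSP90 genes differed from each other in which protein was called. Hsp90aa1, the inducible HSP90 gene (chromosome 12, 110691036 to 110696395), had BRD3 regions of 852 bp with RANKL+Ibet, 941 bp with RANKL, 961 bp with Ibet only and 1276 bp in untreated cells, and no BRD2 region. A BRD3 region in all 4 treatments was also found at 10.4% of all genes. Each of these regions spanned the higher-coordinate end of the gene. Hsp90ab1, the constitutive HSP90 gene (chromosome 17, 45567778 to 45573261), had 1 region in all, a BRD2 region of 1602 bp with RANKL at 45572935 to 45574536. It ranked 1685 of 1716 by score, in the lowest part of that list, although it ranked 269 by width.

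Hspa8, which encodes the constitutive cytosolic HSC70 (chromosome 9, 40801276 to 40805202), had a BRD3 region in every treatment, and it held the widest region of the 10 genes. The BRD3 widths were 489 bp with RANKL+Ibet, 1246 bp with RANKL, 2134 bp with Ibet only and 1834 bp in untreated cells. With Ibet only the region ranked 12 of 2232 by width, and with RANKL+Ibet it ranked 2050 of 2842. The narrow region of RANKL+Ibet lay wholly within the wider one of Ibet only and covered 22.9% of it. BRD2 regions were called with Ibet only (1747 bp) and in untreated cells (999 bp), and with neither RANKL+Ibet nor RANKL. The Ibet region of BRD2 contained the untreated one and also reached into the gene, from which the untreated region ended 483 bp away.

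Hspa5 encodes BiP, the HSP70 of the endoplasmic reticulum and a classical target of the unfolded protein response (chromosome 2, 34772090 to 34776529). It had BRD2 regions of 536 bp with RANKL and 1013 bp with Ibet only, and no BRD3 region within 5 kb in any treatment. A BRD2 region in at least 1 treatment with no BRD3 region in any was found at 4.81% of all genes, and Hsp90ab1 was the other such gene among the 10. The Ibet region covered all 300 bases of the Hspa5 window printed above, with its ER stress element. The RANKL region ended 291 bp before the start site and covered 0 of the 300 bases.

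Hspa9, which encodes the mitochondrial HSP70 mortalin (chromosome 18, 34937414 to 34954351), was called in 7 of 8 lists, as were 0.439% of all genes in at least 7. Its BRD2 regions at the higher-coordinate end were 1334 bp wide with RANKL+Ibet, 1605 bp with RANKL, 1259 bp with Ibet only and 1041 bp in untreated cells. A BRD2 region in all 4 treatments was found at 68 of 21887 genes, 0.311%. BRD3 regions there were 1118 bp with RANKL+Ibet, 1430 bp with RANKL and 915 bp with Ibet only, and none was called in untreated cells. By score the BRD2 region ranked 46 of 245 with RANKL+Ibet, 1685 of 1716 with RANKL, 737 of 1067 with Ibet only and 28 of 578 in untreated cells. With RANKL, both lists also held a second region farther out, 568 bp wide for BRD3 and 443 bp for BRD2, at 4091 and 4268 bp from the gene, which no other list held.

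Hspa4 encodes APG-2, an HSP110-type nucleotide exchange factor that resets HSP70 (chromosome 11, 53259814 to 53300479). BRD2 regions of 1612 bp with RANKL, 1480 bp with Ibet only and 1221 bp in untreated cells were called, and none with RANKL+Ibet. BRD3 regions of 515 bp with RANKL+Ibet, 890 bp with RANKL and 725 bp with Ibet only were called, and none in untreated cells. Where both proteins were called, the BRD2 region held the BRD3 region entirely. All 6 regions covered the complete Hspa4 window printed above.

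Hspa9 and Hspa4 thus shared a BRD3 pattern, with a region in each of the 3 treatments and none in untreated cells, as did 0.978% of all genes. Among the 106 other genes of the chaperone lists, Calr (calreticulin of the endoplasmic reticulum), Chordc1 (an HSP90 co-chaperone) and Hsf2 (a heat shock factor) had the same pattern. The BRD3 regions at Calr lay 849 to 1014 bp outside the gene.

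Dnajb1 and Hsph1, a J-domain partner of HSP70 and an HSP110 exchange factor, are HSF1 targets in stressed cells and had almost no calls. Other genes with such features were called more often. Hspd1 and Hspe1, which like Hsph1 held the longer heat shock element, had regions in 4 lists each. The inducible gene Hsp90aa1 also had regions in 4 lists. Whether calls go with induction by HSF1 was not tested. Dnajb1 (chromosome 8, 83608175 to 83612653) had 1 region, of BRD3 with RANKL, 343 bp wide at 83608316 to 83608658. It was among the narrowest of its list, at rank 3803 of 3840 by width. Hsph1 (chromosome 5, 149616843 to 149636498) had no region in any list and none within 20 kb. The nearest other regions within 20 kb lay well outside the 5 kb limit, 13657 to 13723 bp from Dnajb1 and 17413 to 17449 bp from Hspa5, in BRD3 lists.

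**Figure D3:**
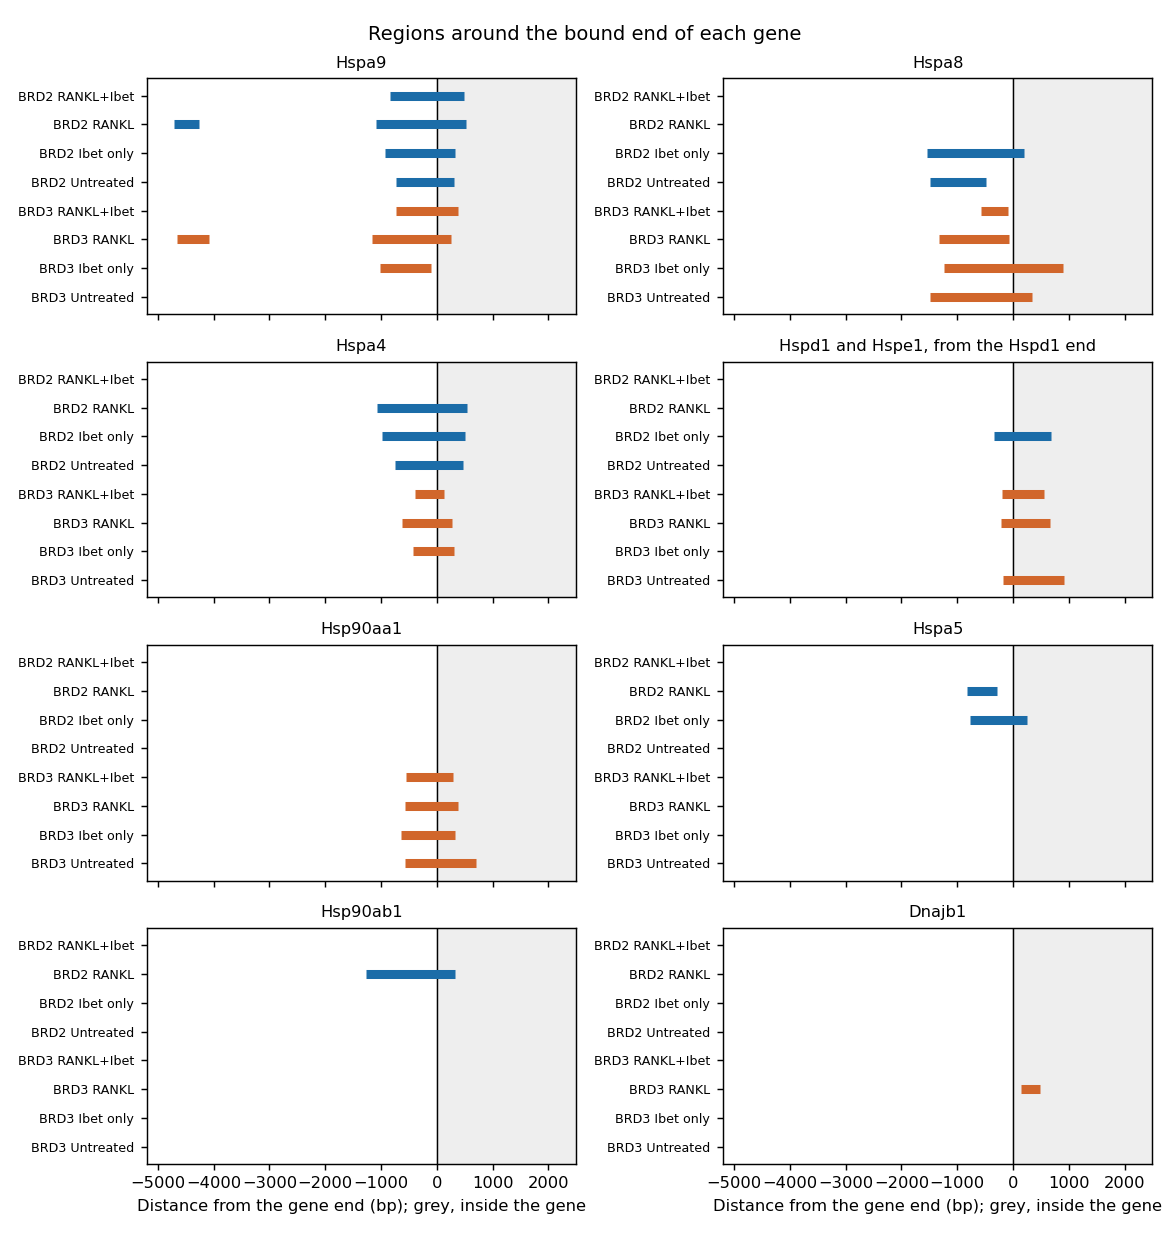
Regions (bars; blue BRD2, orange BRD3) around the bound end of each called gene, with the distance from that gene end in bp on the horizontal axis (negative outside the gene, grey inside it) and the 8 lists down each panel. Regions of a gene lie on top of each other at the same end, apart from the second Hspa9 regions with RANKL; Hspe1 is drawn with Hspd1.

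The regions had their position in common. Of 37 pairs of a gene and a region, 29 covered an end of the gene, against 54.6% of 19865 such pairs over all genes. No gene had its regions at different ends. Where the start site was known from the promoter table, the region midpoints lay between -558.5 and 48.5 bases from it.

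Width and score of the regions differed in where they stood within their lists. Of the 33 distinct regions, 27 were wider than the median of their own list and 14 scored above its median. In the BRD2 RANKL list the 5 regions had a median width of 1602 bp, against 877 bp for the list, and 1 of the 5 scored above the list's median. In the BRD3 untreated list all 3 regions stood above the median on both measures. By construction about 50% of a whole list lies above its median. Wide regions of low score were found at Hsp90ab1 and Hspa9 in the BRD2 RANKL list, both at rank 1685 of 1716 by score. By width they ranked 269 and 268. How often a wide region has a low score over whole lists was not counted.

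**Figure D4:**
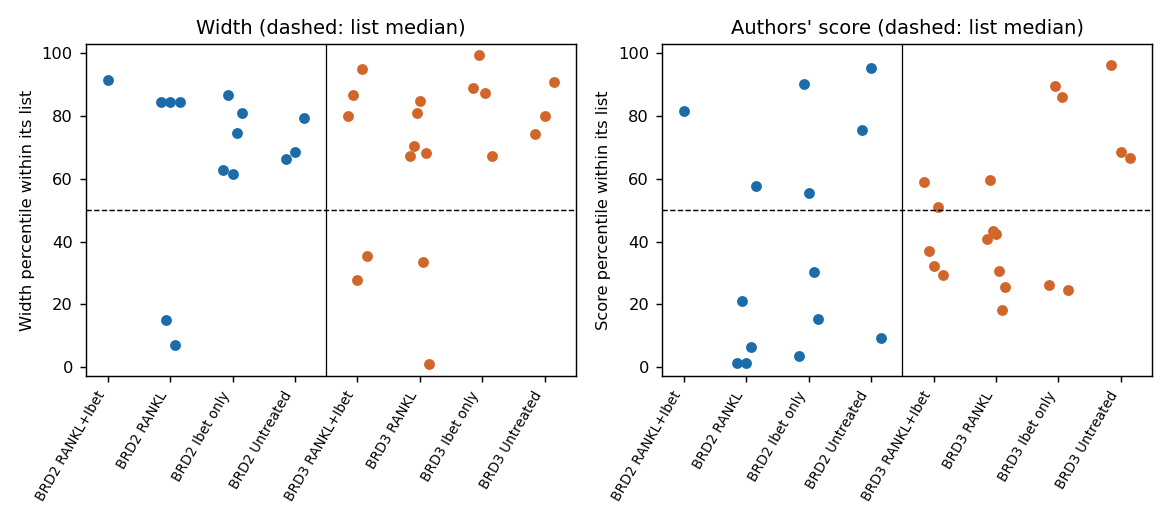
Percentile of each of the 33 distinct regions within its own list, by width (left) and by the authors' score (right), for the 8 lists (1 library each); the dashed line is the list median. By width 27 points lie above the line and by score 14.

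Set against untreated cells, RANKL addresses how BET binding stands early in osteoclast induction. For BRD3, Hspa9, Hspa4 and Dnajb1 had a region with RANKL and none in untreated cells, 3 of 10 against 3.84% of all genes, and no gene had the reverse, against 3.78% (20% of genes with an untreated region). The 3 BRD3 regions present in both lists (Hspd1 with Hspe1, Hsp90aa1 and Hspa8) were narrower with RANKL, with a median width ratio of 0.737, while 47.6% of all overlapping regions were. In the upper 50% of each list by score the direction turned, with 0 genes with a BRD3 region with RANKL alone and 3 in untreated cells alone, whereas in lists of equal length by score the counts stayed at 3 and 0. For BRD2, Hsp90ab1 and Hspa5 had a region with RANKL and none in untreated cells, against 7.11% of all genes, and Hspa8 had the reverse, against 1.3% (1 of 3 genes with an untreated region, against 42.9%). The RANKL list held 1716 BRD2 regions and the untreated list 578. With the lists cut to equal length by score, no gene had a BRD2 region with RANKL alone and 3 had one in untreated cells alone.

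Ibet only against untreated cells compares calls with and without the inhibitor in cells not given the cytokine. For BRD3, Hspd1 and Hspe1 had no region with Ibet and one in untreated cells, 2 of 10 against 7.37% of all genes, or 2 of the 4 with an untreated region against 39%. Hspa9 and Hspa4 had the reverse, against 1.47%. BRD2 regions were found with Ibet and not in untreated cells at Hspd1, Hspe1 and Hspa5, 3 of 10 against 3.92%, and at no gene in the reverse direction, against 1.56% (51.3% of genes with an untreated region). All 3 BRD2 regions of untreated cells (Hspa8, Hspa9 and Hspa4) were overlapped and contained by wider Ibet regions, with a median width ratio of 1.21, where 47.2% of all untreated BRD2 regions were overlapped and 60.1% of overlapping regions were wider with Ibet. In lists of equal length by score, 1 gene (Hspa5) had a BRD2 region with Ibet alone and 2 (Hspa9 and Hspa4) in untreated cells alone.

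RANKL+Ibet against RANKL compares calls with and without the inhibitor in cytokine-treated cells. Of the 7 genes with a BRD3 region under RANKL, 6 also had one with both agents; the exception was Dnajb1, against 4.78% of all genes and 25.2% of those with a RANKL region. All 5 shared BRD3 regions were narrower with both agents, from 489 bp against 1246 bp at Hspa8 to 852 bp against 941 bp at Hsp90aa1. Over all regions 66.6% were narrower, so the direction was the common one. In the upper 50% of each list by score, 3 genes (Hspd1, Hspe1 and Hspa9) had a BRD3 region with both agents alone. The 1 gene with RANKL alone was then Hsp90aa1 and not Dnajb1. In lists of equal length 1 (Hspa4) had a BRD3 region with both agents alone and 0 with RANKL alone. For BRD2, 3 of 4 genes (Hsp90ab1, Hspa5 and Hspa4) had no region with both agents, against 7.97% of all genes and 90.1% of those with a RANKL region, and Hspa9 had one in both lists. No gene had a BRD2 or BRD3 region with both agents and none with RANKL, against 0.466% and 1.77%. The BRD2 list with both agents was the shortest, with 245 regions; with BRD2 lists of equal length by score, 0 genes had a region with RANKL alone and 1 (Hspa9) had one with both agents alone.

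RANKL+Ibet against Ibet only compares calls with and without the cytokine in inhibitor-treated cells. Hspd1 and Hspe1 had a BRD3 region with both agents and none with Ibet only, against 3.66% of all genes, and no gene had the reverse, against 0.704% (5.41% of genes with an Ibet region). The BRD3 region of Hspa9 was wider with both agents (1118 bp against 915 bp), and those of Hspa8, Hspa4 and Hsp90aa1 were narrower. BRD2 regions of 5 of 6 genes (Hspd1, Hspe1, Hspa8, Hspa5 and Hspa4) were not called with both agents, against 4.57% of all genes and 84.7% of those with an Ibet region. No gene had a BRD2 region with both agents and none with Ibet only, against 0.516%. With BRD2 lists of equal length by score, 1 gene (Hspa9) had a region with both agents alone and 1 (Hspa8) with Ibet alone. Hspa9 had BRD2 regions in both lists, 1334 bp wide with both agents and 1259 bp with Ibet only.

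BRD2 and BRD3 regions occurred together at 1 gene with RANKL+Ibet (Hspa9), at 2 with RANKL (Hspa9 and Hspa4), at 3 with Ibet only (Hspa8, Hspa9 and Hspa4) and at 1 in untreated cells (Hspa8), against 0.48%, 4.4%, 1.56% and 1.69% of all genes. At each of these the 2 regions overlapped.

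The other 106 genes of the 12 chaperone lists gave a wider view of the protein-folding machinery. Of these, 59 had a region in at least 1 list, against 28.3% of all protein-coding genes, which include silent ones. BRD3 regions were found at 35 with RANKL+Ibet, 43 with RANKL, 28 with Ibet only and 43 in untreated cells. The shares of all genes were 16%, 19%, 13% and 18.9%. BRD2 regions were found at 2, 19, 13 and 6 in the same order, against 1.34%, 8.85%, 5.4% and 3.04%. The stress-inducible HSP70 genes Hspa1a and Hspa1b and the small heat shock genes Hspb1 and Cryab had no region in any list. The chaperonin list had the largest BRD3 RANKL count for its size among lists over 5 genes, 7 of 10 with Hspd1 and Hspe1 included, and it had 3 of 10 with Ibet only. Of the cytosolic chaperonin (TRiC) subunit genes, Cct3 was called in 6 lists and Cct4 and Cct6a in 5 each. The Cct3 regions also lay within 1 kb of an end of Tsacc. In the BRD3 lists of treated cells the Cct6a regions lay 299 to 324 bp outside the gene, within 1 kb of an end of Sumf2. Cct4 had BRD3 regions of 486 bp with RANKL and 583 bp in untreated cells and none in the BRD3 lists with Ibet. Its BRD2 regions were 743 bp wide with RANKL, 409 bp with Ibet only and 308 bp in untreated cells, with none for RANKL+Ibet.

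Heat shock factor genes had BRD3 regions and no BRD2 region. Hsf1, the master regulator of the heat shock response, had a BRD3 region in all 4 treatments, 800 bp wide with RANKL+Ibet, 776 bp with RANKL, 746 bp with Ibet only and 673 bp in untreated cells, which also lay within 1 kb of an end of Bop1. Hsf2 had regions of 446 bp, 611 bp and 551 bp in the 3 treatments, inside the gene. The Hsf4 regions lay over 4 kb outside that gene, near Tradd and Fbxl8.

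Among endoplasmic reticulum chaperones, Hyou1 (an HSP110 of that compartment) was called in 6 lists and P4hb (protein disulfide isomerase) in 5. In the BRD3 list with Ibet only, the Hyou1 call came from a region 4335 bp outside the gene, within 1 kb of an end of Slc37a4. Hyou1 had BRD2 regions of 978 bp with RANKL and 441 bp with Ibet only. The narrower of them ranked 72 of 1067 by score in the Ibet list. Hsp90b1, the HSP90 of the endoplasmic reticulum, had a BRD3 region of 1678 bp in untreated cells and no BRD3 region in any treated list, and a BRD2 region of 1248 bp with RANKL, both at a gene end within 1 kb of an end of Ttc41. Atf4, a transcription factor gene of the stress response, had BRD3 regions with RANKL and in untreated cells and none in the lists with Ibet. Its BRD2 regions were 1676 bp wide with RANKL, 746 bp with Ibet only and 1092 bp in untreated cells, with none for RANKL+Ibet. The unfolded protein response genes Atf6, Xbp1, Ern1 and Eif2ak3 had no region in any list. BRD3 regions at Ddit3, from the same gene list, were called in all 4 treatments and also lay within 1 kb of an end of Mbd6. They were 2181 bp wide with RANKL+Ibet, 2212 bp with RANKL, 2213 bp with Ibet only and 2247 bp in untreated cells. Ddit3 had no BRD2 region.

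The same comparisons were made over the wider lists. Percentages are shares of all protein-coding genes, or in parentheses of all genes with a region in the list named. For BRD3, 18 of the 106 genes had a region in untreated cells and none with Ibet only, against 7.37% (18 of 43 with an untreated region, against 39%). Among them were Hsp90b1, Dnajb2, Ptges3, Grpel2 and Cct4. The reverse was found at 3 (Hsf2, Calr and Chordc1), against 1.47%. With RANKL against untreated cells, 9 had a BRD3 region with RANKL alone, led by score by Ppid, Hsf2 and Lonp1, against 3.84%. The Lonp1 region lay 588 bp outside the gene, within 1 kb of an end of Rpl36. Another 9 genes had a BRD3 region in untreated cells alone, against 3.78% (9 of 43 with an untreated region, against 20%). These were led by Hsp90b1 (through a region of 982 bp that lay 4908 bp outside the gene), Dnajb2 and Pfdn2. With RANKL+Ibet against RANKL, 4 (Cct5, Dnajb6, Dnajb14 and Pfdn2) had a BRD3 region with both agents alone, against 1.77%. With RANKL alone there were 12, led by Cct4, Ppid and Lonp1, against 4.78% (12 of 43 with a RANKL region, against 25.2%). For BRD2, 14 had a region with RANKL and not in untreated cells, led by the HSP90 co-chaperone gene Ptges3, against 7.11%. The reverse was found at 1 (Cct3), against 1.3% (1 of 6 with an untreated region, against 42.9%). With Ibet only against untreated cells, 10 had a BRD2 region with Ibet alone, led by Hyou1, Dnajc19 and Trap1, against 3.92%. In untreated cells alone there were 3 (Dnajb4, Sil1 and Hspb7), against 1.56% (3 of 6 with an untreated region, against 51.3%). With RANKL+Ibet against RANKL, 0 had a BRD2 region with both agents alone, against 0.466%. With RANKL alone there were 17, against 7.97% (17 of 19 with a RANKL region, against 90.1%). With RANKL+Ibet against Ibet only, 1 (Dnajb4) had a BRD2 region with both agents alone, against 0.516%. With Ibet alone there were 12, against 4.57% (12 of 13 with an Ibet region, against 84.7%). With RANKL+Ibet against Ibet only, 7 had a BRD3 region with both agents alone, led by Dnajc8 and Dnajc11, against 3.66%. The reverse was found at 0, against 0.704% (0 of 28 with an Ibet region, against 5.41%). The pattern of Hspd1 and Hspe1, a BRD2 region with Ibet only and not in untreated cells beside the reverse for BRD3, was found at 0 of the 106 genes and at 0.927% of all genes. Its counterpart in RANKL+Ibet against Ibet only, a BRD3 region with both agents alone beside a BRD2 region with Ibet alone, was also seen at Hspd1 and Hspe1 and at 0.279% of all genes.

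**Figure D5:**
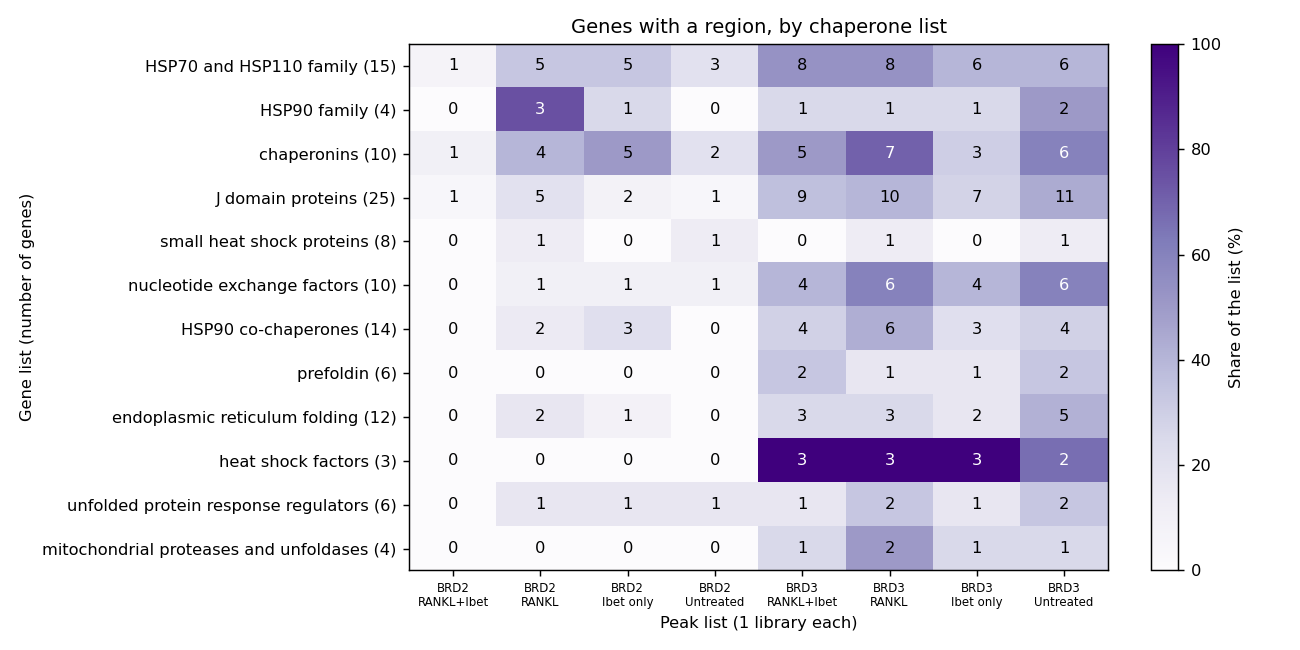
Number of genes with a region within 5 kb in each peak list (columns, 1 library each) for the 12 chaperone gene lists (rows, with their number of genes); shading gives the share of the list in percent. Heat shock factor genes have 3 of 3 in the treated BRD3 lists and 2 of 3 in the untreated one, and the small heat shock protein list has at most 1 of 8.

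Genes with the same presence over the 8 lists were compared by the mean absolute log2 ratio of their widest regions. Hspa9 shared its presence with 2 genes, Eif4e (0.42) and Rabggtb (0.58). Hspa4 shared it with 3, Ggt6 and Mybbp1a (0.38 each) and Ccdc91 (0.61). Hspa8 shared it with 25, the nearest being Msl2 (0.38), Yars2 (0.51) and Cct3 (0.66). Beyond each other, Hspd1 and Hspe1 were nearest to Pnn (0.16) and Ly86 (0.35) among 23. Hsp90aa1 had the most common of these patterns, shared with 1626 genes, the nearest being Ubn2 (0.08).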

How the data were processed

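Per the submitters' processing notes, FastQC, Bowtie2 2.3.4.1 and MACS2 2.1.1.20160309 were used with the mm10/GRCm38 build; settings are not given in the sources used here. Per the labels' protocols, fixation took 15 min in 1% formaldehyde, and sequencing gave single-end 50 bp reads. The deposited files are 8 peak lists with a position, peak names and a score per region, which is the authors' own value and was used for ranks within a list. By the peak names that the deposited lists carry, a region joins peaks of sets numbered 3, 5 and 7, whose meaning is not given. Replicates, depth and signal height are not in these values, so no interval or test was computed. The 4 input libraries have no file here and were not analysed.

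Starts were read as BED positions and 1 was added; if the lists already count from 1, starts are off by 1 bp. Genes were placed by the RefSeq table of GRCm38.p6; strand was used only for genes of the promoter table. A gene was called when a region overlapped it, or the 5 kb on either side, by at least 1 bp (Python 3.11.15, pandas 2.3.3). The calling step was tested on simulated intervals. Calls of the 10 genes are given beside the share of all genes called by the same rule. Alternatives were a window of 1 kb around gene ends, the upper 50% of each list by score, lists of equal length, and a reciprocal overlap of 50%.

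The 10 genes and the 12 chaperone lists were chosen with earlier results of these data known. Other chaperone genes were named from those in at least 5 of 8 lists and, per comparison, up to 8 with a region in one list alone, in order of score. Not every gene that met these rules is named. Genes without a region, the heat shock factors, Ddit3 and the genes sharing a pattern were named after their values were seen. Likeness of pattern was computed for genes in at least 4 lists, with up to 3 genes named for each.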

Additional observations from a re-analysis of the deposited data

Results flagged for a closer look

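Hspd1 and Hspe1 changed in opposite directions for the 2 antibodies in 2 contrasts, each seen in 1 library per list, and the difference was not tested. With Ibet only against untreated cells, the BRD2 region of 1028 bp was called with Ibet and not in untreated cells, and the BRD3 region of 1094 bp was called in untreated cells and not with Ibet. With RANKL+Ibet against Ibet only, a BRD3 region of 750 bp was called with both agents and the BRD2 region of 1028 bp was not. Both genes share these regions, so they are 1 locus. The first pattern was found at 203 of 21887 genes (0.927%) and the second at 61 (0.279%). At Hspd1 and Hspe1 both patterns rested on the BRD2 region with Ibet only, which ranked 1017 of 1067 by score. In both alternatives that cut the lists by score, described below, neither gene kept that BRD2 region, so the opposite change was absent. The BRD3 part of each contrast stayed in both alternatives.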

How the results depend on the processing

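No paired analysis was possible because each antibody and treatment has 1 library. With the window cut to 1 kb from either gene end, all 28 counts stayed within 1.5 times the values reported, as did all 8 overlap counts with a reciprocal overlap of 50%. The counts depended on the score: with the upper 50% of each list, 20 of 28 counts moved, and with lists of equal length 10 of 16. In the upper 50%, BRD2 regions were found at 1 gene with RANKL and 2 with Ibet only, and BRD3 regions at 3 with RANKL+Ibet, 1 with RANKL and 2 with Ibet only; both proteins were found at 0 genes with RANKL and 1 with Ibet only. Genes with a BRD2 region in the first list alone and in the second alone then numbered 1 and 2 for RANKL against untreated cells, 1 and 1 for Ibet only against untreated cells, 1 and 1 for RANKL+Ibet against RANKL, and 1 and 2 for RANKL+Ibet against Ibet only. For BRD3, 0 genes had a region with RANKL alone and 3 in untreated cells alone, 1 with Ibet alone against untreated cells, 3 with RANKL+Ibet alone against RANKL, and 1 with Ibet alone against RANKL+Ibet. In lists of equal length, the BRD2 numbers were 0 and 3 for RANKL against untreated cells, 1 and 2 for Ibet only against untreated cells, 1 and 0 for RANKL+Ibet against RANKL, and 1 and 1 for RANKL+Ibet against Ibet only. The BRD3 numbers were 1 and 0 for RANKL+Ibet against RANKL. The genes behind a count can also change. In the upper 50%, the 1 gene with a BRD2 region with RANKL alone was Hspa4, both against untreated cells and against RANKL+Ibet. The 1 gene with a BRD3 region with RANKL alone against RANKL+Ibet was Hsp90aa1 in place of Dnajb1. Fewer regions enter both alternatives by construction, and beyond that the cause was not tested. Depth is unknown, so a region absent from a list is a missing call, not a measured absence of binding.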
